A study of Rattus norvegicus with 3 samples.

Results

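Chemokines are small secreted proteins that guide migrating cells, and their receptors are G protein-coupled receptors that mostly signal through inhibitory G proteins. The ligands are grouped by the spacing of their first cysteines into the CC, CXC, CX3C and XC classes, and the receptors are named after the class they bind. Atypical receptors bind chemokines without the usual G protein signalling and often remove them. In brain, neurons make the CX3C ligand Cx3cl1 and microglia carry its receptor Cx3cr1, while inflammatory CC and CXC ligands are known for drawing leukocytes into injured tissue. The genes described here were chosen by name, as every row called Ccl, Cxcl, Ccr, Ccrl, Cxcr or Ackr with a number, together with Cx3cl1, Cx3cr1, Xcl1, Xcr1, the chemoattractant chemerin (Rarres2) and its receptor Cmklr1. This rule found 59 of the 30957 genes listed, each in 1 row, of which 34 were ligands of the 4 classes, 1 was chemerin and 24 were receptors.

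RNA sequencing was done on motor cortex from 3 male Sprague-Dawley rats, numbered 12, 24-4 and 33. All had cerebral ischemia and reperfusion, in which brain blood flow is blocked and then restored, and all received electroacupuncture at GB20 (Fengchi). The labels give a time of 8 weeks without saying what it is counted from. The rats form 1 group with 1 library each, so the data give levels and their spread between treated animals, and no effect of ischemia or acupuncture was tested. Levels are given in FPKM, a fragment number scaled by gene length and by library size, so that genes can be set side by side. Between rats, FPKM values also depend on what else each library holds.

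The tissue label and the libraries were checked with marker lists. Genes of glutamatergic cortical neurons were all expressed, with Slc17a7 at 421, 709 and 367 FPKM and the cortical factor Fezf2 at 11.6, 22.2 and 7.04 FPKM in rats 12, 24-4 and 33. The libraries also differed in other tissue. The summed FPKM of 7 choroid plexus genes was 3347 in rat 12, 130 in rat 24-4 and 13247 in rat 33, and that of 7 fibroblast and meningeal genes was 64.8, 37.2 and 192, with Col1a2 listed at 0 in every rat. Depth was estimated from the steps of low values at short loci as 15330000, 17230000 and 13000000 fragments in rats 12, 24-4 and 33. For a 1 kb gene, 1 FPKM then stands for 13 to 17.2 fragments, and the exact Poisson limits (95%) of these numbers reach from 6.92 to 27.2. A floor of 3 fragments corresponds to 0.196, 0.174 and 0.231 FPKM for such a gene. These limits cover counting error only.

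Most chemokine and receptor genes lay near the floor, and a few were abundant. A mean FPKM of at least 1 was reached by 19 of the 59, where 44.4% of all rows reached it, and 33 had a mean above 0 but under 1. The other 7, Ccl1, Ccl11, Ccl26, Ccl28, Cxcl2, Cxcl3 and Ccr1l1, were listed at 0 in all rats, as were 38.7% of all rows. A listed 0 can be a failed estimate in these files, so absence cannot be read from it. Only 6 genes had a mean of 10 FPKM or more, and Cx3cl1 alone made 58.7%, 55.0% and 29.2% of the summed FPKM of all 59 genes in rats 12, 24-4 and 33. On the log2(FPKM + 1) scale, the median level of the 19 genes was 2.31, against 3.47 over all 13754 genes with a mean of at least 1.

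**Figure D1:**
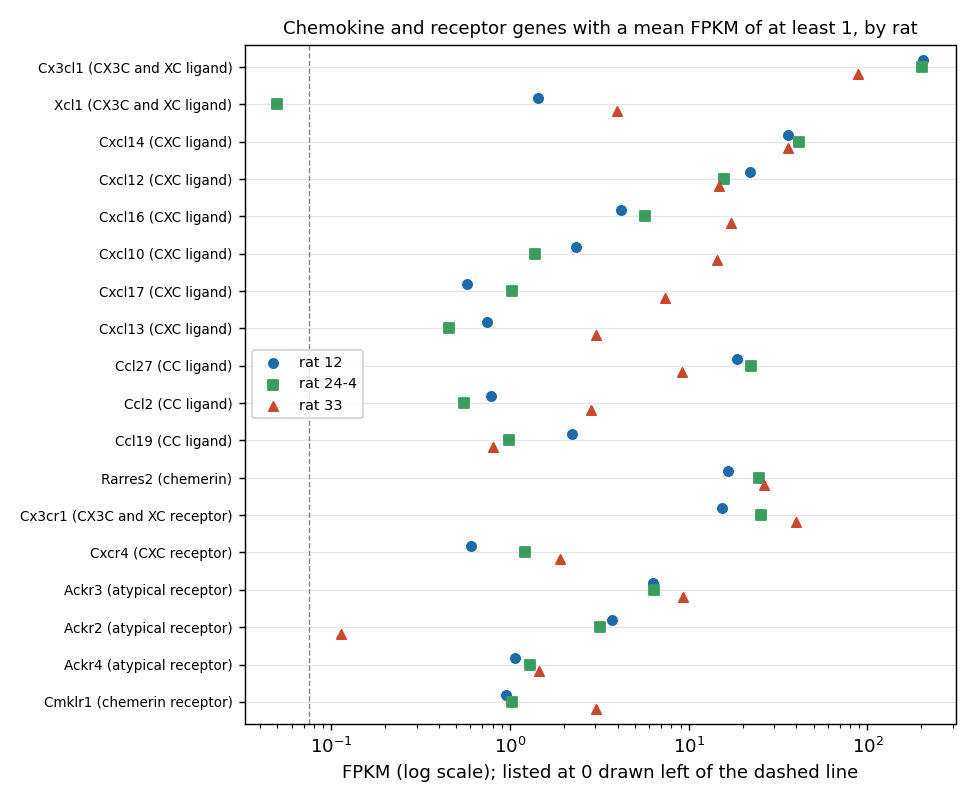
FPKM (log axis) of 18 of the 19 chemokine and receptor genes with a mean of at least 1, by rat, ordered by role. Cx3cl1 lies far to the right of all others, Cxcl14 has nearly equal values in the 3 rats, and Cxcl10, Cxcl16 and Cxcl17 have rat 33 well to the right of the other rats.

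The CX3C pair gave the most abundant ligand and the most abundant receptor. Cx3cl1, also called fractalkine, is anchored in the neuronal membrane and can be cut off by proteases. Its gene (ENSRNOG00000016326, chromosome 19, 10644244 to 10653800, Rnor_6.0) had 205 FPKM in rat 12 and 201 in rat 24-4, beside 88.1 in rat 33 (limma unadjusted p = 0.118, adjusted p = 0.964). Rat 33 was thus lower than the other rats, which were close to each other, and the mean of 165 ± 66.4 FPKM (SD, n = 3 rats) exceeded 97.6% of the tested genes. Cx3cr1 (ENSRNOG00000018509, chromosome 8, 128740756 to 128754514) had 15.4, 25.5 and 39.7 FPKM in rats 12, 24-4 and 33, with a mean of 26.9 ± 12.2 (limma unadjusted p = 0.0804, adjusted p = 0.904). Here rat 33 was highest and rat 12 lowest. Within rats Cx3cl1 exceeded Cx3cr1 on the log2(FPKM + 1) scale by 3.65, 2.93 and 1.13.

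Cx3cr1 stayed at a nearly fixed distance from other microglial genes, and Cx3cl1 did so from glutamatergic neuron genes by only 1 of 2 summaries. Microglial genes summed to 221, 406 and 692 FPKM in rats 12, 24-4 and 33, and all 13 tested members of that list were highest in rat 33 while Siglech was listed at 0 in rats 12 and 24-4. Cx3cr1 made 6.95%, 6.29% and 5.73% of that sum, and its log2 level lay above the list's median by 0.60, 0.66 and 0.50. The SD of this distance, 0.08, was smaller than the SD of 0.66 of Cx3cr1 itself. Glutamatergic neuron genes were summed to 2063, 2174 and 1035 FPKM in rats 12, 24-4 and 33, with 6 of the 7 lowest in rat 33, and Cx3cl1 came to 9.94%, 9.25% and 8.52% of that sum. Against the median of that list, which hardly differed between rats (5.46, 5.58 and 5.47), Cx3cl1 was higher by 2.22, 2.07 and 1.01. The distance was thus shorter in rat 33 by this summary. The median was the level of Tbr1 in rat 12 and of Neurod6 in rats 24-4 and 33. Neurod6 was the only gene of the list not lowest in rat 33, so this summary depends on which gene fell in the middle. The 6 GABAergic neuron genes were all lowest in rat 33, and their median was 5.99, 5.42 and 5.02 in rats 12, 24-4 and 33. The part of cell composition in these differences was not tested, and in bulk tissue fewer cells of a type and less RNA per cell cannot be told apart.

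**Figure D2:**
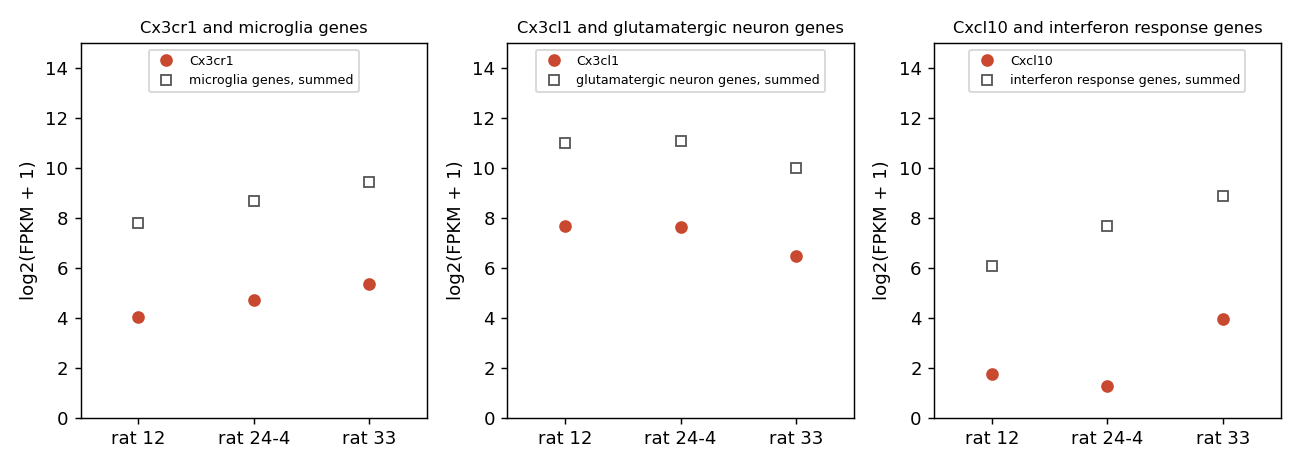
Level of Cx3cr1, Cx3cl1 and Cxcl10 (filled circles) beside the summed FPKM of microglial, glutamatergic neuron and interferon response genes (open squares), both as log2(FPKM + 1), in rats 12, 24-4 and 33. Cx3cr1 and the microglial sum are lowest in rat 12 and highest in rat 33, whereas Cxcl10 is lowest in rat 24-4 and the interferon sum is lowest in rat 12.

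Among CXC ligands, Cxcl14 and Cxcl12 were the most abundant and varied little. Cxcl14, which is made by a subset of cortical interneurons in mouse, had 36.0, 41.4 and 35.7 FPKM in rats 12, 24-4 and 33, with a mean of 37.7 ± 3.22. Its values hardly differed between rats (limma unadjusted p = 0.902, adjusted p = 0.998). Cxcl12, the ligand of Cxcr4 and Ackr3 that positions migrating neurons and interneurons during development, had 22.0, 15.7 and 14.8 FPKM, so that rat 12 was highest and the others were close. Its mean was 17.5 ± 3.92 FPKM (limma unadjusted p = 0.520, adjusted p = 0.993). Endothelial genes, from cells that make Cxcl12, summed to 74.5, 99.9 and 104 FPKM, and Cxcl12 came to 29.5%, 15.7% and 14.2% of that sum. Against the median of the endothelial list on the log2(FPKM + 1) scale, Cxcl12 was higher by 2.0, 1.77 and 0.88, so that rat 12 stood apart by the sum and rat 33 by the median.

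Cxcl16, Cxcl10, Cxcl17 and Cxcl13 formed a second set, higher in rat 33 than in either other rat. Cxcl16, a membrane-bound ligand of Cxcr6 and scavenger receptor for oxidised lipoprotein, had 4.20, 5.71 and 17.3 FPKM in rats 12, 24-4 and 33. Cxcl10, an interferon-induced ligand of Cxcr3 on activated T cells, had 2.35, 1.38 and 14.3 FPKM. Cxcl17, best known from mucosal tissue, had 0.573, 1.02 and 7.34 FPKM, and Cxcl13, which attracts B cells through Cxcr5, had 0.744, 0.458 and 3.04 FPKM. The Cxcl16 locus overlaps Zmynd15 by 119 bp. In rat 33 the level was thus 3.02 times the higher of the other rats for Cxcl16, 6.07 times for Cxcl10, 7.19 times for Cxcl17 and 4.08 times for Cxcl13. None passed the adjusted threshold of 0.05 in limma, with adjusted p-values of 0.674 for Cxcl16, 0.393 for Cxcl10, 0.478 for Cxcl17 and 0.899 for Cxcl13. The unadjusted limma p was 0.0188 for Cxcl16, 0.00303 for Cxcl10, 0.00602 for Cxcl17 and 0.0726 for Cxcl13. With rat 12 left out, Cxcl10 passed (limma adjusted p = 0.0267), while its adjusted p over the other alternative settings ran from 0.406 to 0.985.

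Cxcl10 lies in a cluster of interferon-induced ligands of Cxcr3 with Cxcl9 and Cxcl11, and the 3 genes had the same order of rats. Cxcl11 had 0.879, 0.298 and 1.04 FPKM in rats 12, 24-4 and 33, and Cxcl9 had 0.304, 0.116 and 0.973. All 3 were highest in rat 33 and lowest in rat 24-4, but the values of Cxcl9 and Cxcl11 are close to the floor. The 14 interferon response genes were also all highest in rat 33, with sums of 66.1, 202 and 470 FPKM. Of these, 12 were lowest in rat 12, unlike the cluster, while the other 2, Ifit2 and Ifit3, had the order of the cluster. That order was also seen in the choroid plexus sums and in those of the mural cell and the fibroblast and meningeal lists. The border macrophage, B cell, and neutrophil and monocyte sums had it too, as did Xcl1, Cxcl13 and Ccl2. The part of the interferon response or of any of these cell types in the chemokine values was not tested. Cxcl10 and Cxcl11 lie within Art3 on the opposite strand, and since the use of strand in counting is not given, their fragments could be divided with it. Art3 had 2.53, 2.5 and 1.94 FPKM in rats 12, 24-4 and 33, and how fragments were divided between the genes was not tested.

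Upstream sequence of this cluster and of Cxcl1, a neutrophil-attracting ligand from the neighbouring cluster that was low in every rat (0.352, 0.501 and 0.581 FPKM), is shown because these genes are textbook targets of interferon and NF-kB signalling. The runs are the 250 bases before the RefSeq gene start in the build GRCr8, read 5′ to 3′ on the gene's strand, at chr14:15988816-15989065 (+) for Cxcl10, chr14:15973478-15973727 (+) for Cxcl11, chr14:16006916-16007165 (+) for Cxcl9 and chr14:17479322-17479571 (-) for Cxcl1. Capitals mark matches, on either strand, to the interferon-stimulated response element (ISRE, searched as GAAA, any 2 bases and GAAA) and to the NF-kB consensus.
Cxcl10: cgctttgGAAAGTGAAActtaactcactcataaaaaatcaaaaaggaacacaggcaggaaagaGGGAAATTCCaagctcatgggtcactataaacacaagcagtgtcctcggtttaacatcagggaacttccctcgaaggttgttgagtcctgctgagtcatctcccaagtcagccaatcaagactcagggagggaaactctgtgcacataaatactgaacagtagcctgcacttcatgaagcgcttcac
Cxcl11: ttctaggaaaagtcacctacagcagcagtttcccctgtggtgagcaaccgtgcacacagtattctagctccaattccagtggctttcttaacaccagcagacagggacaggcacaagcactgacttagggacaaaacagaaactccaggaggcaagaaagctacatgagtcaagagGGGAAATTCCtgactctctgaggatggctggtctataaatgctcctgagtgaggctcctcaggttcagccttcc
Cxcl9: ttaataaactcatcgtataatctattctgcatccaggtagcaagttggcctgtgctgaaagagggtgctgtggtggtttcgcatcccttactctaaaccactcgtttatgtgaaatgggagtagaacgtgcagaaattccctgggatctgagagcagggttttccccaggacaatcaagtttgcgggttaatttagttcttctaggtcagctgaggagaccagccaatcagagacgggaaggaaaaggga
Cxcl1: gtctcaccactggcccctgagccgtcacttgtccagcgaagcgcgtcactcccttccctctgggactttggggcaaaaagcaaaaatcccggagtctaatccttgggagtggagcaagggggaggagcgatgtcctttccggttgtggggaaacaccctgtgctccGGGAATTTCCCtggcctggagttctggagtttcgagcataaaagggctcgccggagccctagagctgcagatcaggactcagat
Cxcl10 held an ISRE match from 243 to 234 bases before the start and an NF-kB match from 187 to 178 bases before it. Cxcl11 held an NF-kB match from 74 to 65 bases before the start, identical in letters to that of Cxcl10, and Cxcl9 held neither motif in this window. In Cxcl1 the capitals cover 2 overlapping NF-kB matches, on opposite strands, from 84 to 75 and from 83 to 74 bases before the start. Of the 59 genes, 46 had a promoter entry, of which 8 held the NF-kB consensus (17.4%, against 3.52% of 27457 promoters) and 2, Cxcl10 and Ccl19, held the ISRE letters (4.35%, against 3.29%). The 8 were Ccl9, Ccl20, Ccr3, Cxcl1, Cxcl2, Cxcl6, Cxcl10 and Cxcl11, several of which share ancestry and so sequence. Of these 8, Cxcl10 alone had a mean of at least 1 FPKM, and Cxcl2 was listed at 0. Cxcl6, of the same cluster as Cxcl1, was listed at 0 in rat 12 and had 0.0357 in rat 24-4 and 0.331 FPKM in rat 33.

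CC ligands were the largest class and mostly low. Of 20, 3 had a mean of at least 1 FPKM and 4 were listed at 0. Ccl27, which draws T cells to skin through Ccr10, was the highest at 18.7, 22.4 and 9.12 FPKM in rats 12, 24-4 and 33. Rat 33 was lower than both others (limma unadjusted p = 0.0857, adjusted p = 0.908). Its locus overlaps Il11ra1 by 7 bp on the opposite strand, and Il11ra1 had 4.94, 17.4 and 13.4 FPKM. Ccl2, the main attractant of monocytes, had 0.780, 0.555 and 2.85 FPKM, high in rat 33, whereas Ccl19, a ligand of Ccr7 on T cells and dendritic cells, had 2.22, 0.989 and 0.806 FPKM, high in rat 12.

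The inflammatory CC ligands of 2 groups on chromosome 10 were detected at low levels. Ccl3, Ccl4 and Ccl5 attract T cells and monocytes, and Ccl7 is a monocyte attractant like Ccl2. Ccl5 had 0.478, 0.744 and 1.55 FPKM in rats 12, 24-4 and 33, Ccl4 had 0.516, 0.735 and 1.46, and Ccl6 had 0.379, 0.801 and 1.51. All 3 were lowest in rat 12 and highest in rat 33. Ccl7 had 0.0766, 0.136 and 0.994 FPKM and Ccl3 had 0.0860, 0.536 and 0.507. In contrast Ccl17, a ligand of Ccr4, was listed at 0 in rat 33 beside 0.924 in rat 12 and 1.44 in rat 24-4. The remaining CC ligands above 0, which were Ccl9, Ccl12, Ccl20, Ccl21, Ccl22, Ccl24 and Ccl25, had no value over 0.454 FPKM and each was listed at 0 in at least 1 rat.

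Xcl1 and chemerin complete the ligands. Xcl1, made by activated T and NK cells, had 1.43 FPKM in rat 12, was listed at 0 in rat 24-4 and had 3.98 in rat 33 (limma unadjusted p = 0.0119, adjusted p = 0.570). The low unadjusted p depends on the listed 0, which can be a failed estimate. With rat 24-4 left out, Xcl1 had an unadjusted limma p of 0.153 and an adjusted one of 0.913. Its receptor gene Xcr1, a marker of cross-presenting dendritic cells, had 0.0616, 0.0411 and 0.472 FPKM in rats 12, 24-4 and 33. Rarres2 was steadier, at 16.6, 24.7 and 26.4 FPKM, and overlaps Lrrc61 on the opposite strand by 1007 bp. Cmklr1, through which chemerin attracts macrophages and other cells, had 0.952, 1.03 and 3.01 FPKM. It was highest in rat 33, where its level was 2.92 times the higher of the other rats (limma unadjusted p = 0.189, adjusted p = 0.993).

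Both receptors of Cxcl12 were expressed. Ackr3, which takes up Cxcl12 and was the most abundant receptor gene after Cx3cr1, had 6.32, 6.38 and 9.28 FPKM in rats 12, 24-4 and 33. Cxcr4, the signalling receptor for Cxcl12, had 0.607, 1.21 and 1.90 FPKM, lower than Ackr3 in every rat. Ccr2, the Ccl2 receptor of blood monocytes, was listed at 0 in rat 12 and had 0.203 in rat 24-4 and 0.269 FPKM in rat 33. Its locus shares bases with another gene, so its value is uncertain.

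Ackr2, a scavenger of inflammatory CC ligands, stood apart by its low value in rat 33. It had 3.73 FPKM in rat 12 and 3.19 in rat 24-4, while rat 33 had 0.114. On the log2(FPKM + 1) scale rat 33 was below rat 12 by a difference of -2.08 and below rat 24-4 by one of -1.91 (limma unadjusted p = 0.0116, adjusted p = 0.569). Ackr4, which takes up ligands of Ccr7 and Ccr9, had 1.07, 1.29 and 1.45 FPKM and differed little between rats, but it lies entirely within Acad11 on the opposite strand, which had 2.70, 3.24 and 4.82 FPKM. Ccrl2, which binds chemerin, had 0.390, 0.318 and 0.882 FPKM.

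The receptors of circulating leukocytes named next had no value over 0.723 FPKM, and most lay at or near the floor. Among CXC receptors other than Cxcr4, the highest was Cxcr1, a neutrophil receptor in human, at 0.0511, 0.659 and 0.723 FPKM in rats 12, 24-4 and 33, and Cxcr2 was listed at 0 in rats 24-4 and 33. Cxcr3, the receptor for Cxcl9, Cxcl10 and Cxcl11, had 0.0359, 0.0958 and 0.339 FPKM, and Cxcr5 had 0.218, 0.116 and 0.411. Of the CC receptors, Ccr10 had 0.561, 0.366 and 0.0882 FPKM, and Ccr7 had 0, 0.325 and 0.215. Ccr1, Ccr3, Ccr6 and Ccr9 had no value over 0.270 FPKM. For 3 receptors of at most 1447 bp, values multiplied by locus length and depth gave whole fragments. Cxcr6 rested on 2 fragments in rat 12, 0 in rat 24-4 and 1 in rat 33, Ccr8 on 0, 0 and 1, and Ccr4 on 1, 0 and 0. Cxcr6 also lies within Fyco1 on the opposite strand. Markers of the cells that carry these receptors were measured too. The 12 T and NK cell genes summed to 6.36, 12.0 and 22.5 FPKM in rats 12, 24-4 and 33. Of these sums Cd4, also expressed by rat macrophages and microglia, was 4.17, 4.11 and 16.6, and Cd3e was 0.116, 4.81 and 0.477. Cd3d (0.181, 0.0804 and 0.107) and Cd3g (0.211, 0.282 and 0.747) did not share the high value of Cd3e in rat 24-4. Only Lck (0.879, 1.62 and 1.44) and Gzmb, which was near 0, were also highest in that rat. The 5 B cell genes summed to 0.267, 0.0461 and 0.888. The 11 neutrophil and monocyte genes summed to 8.87, 8.53 and 19.5, and the 3 of them with a mean of at least 1 FPKM were all highest in rat 33. Of these, Vcan had 3.77, 2.79 and 6.35 FPKM and Csf3r had 1.08, 2.90 and 5.87. In the same list S100a9 (0.617, 0.219 and 0.582) was highest in rat 12 and Camp (0.0875, 0.234 and 0) in rat 24-4. The granule genes Mpo and Elane were listed at 0 in all rats, and the remaining genes of the list were highest in rat 33. The part of such cells in the chemokine values was not tested.

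**Figure D3:**
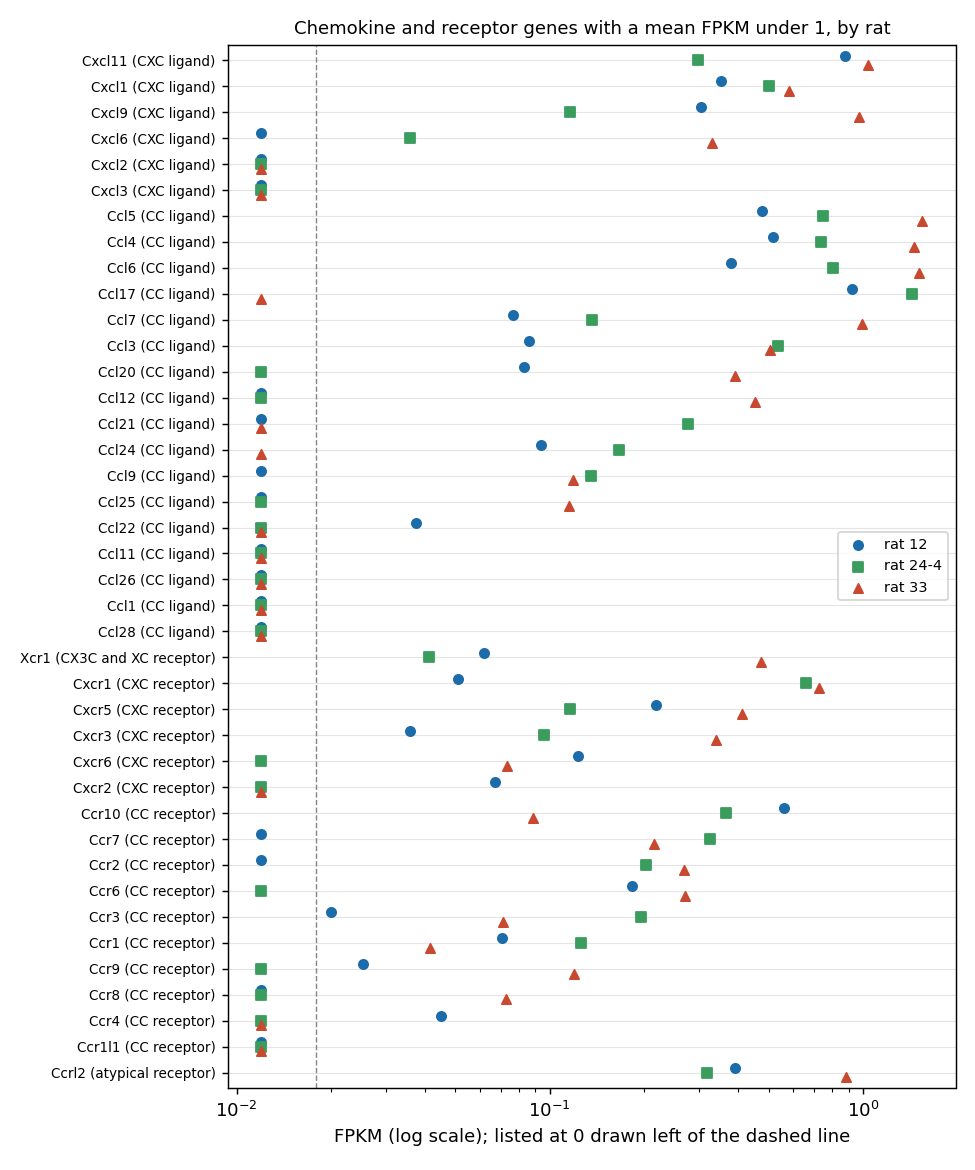
FPKM (log axis) of the 40 chemokine and receptor genes with a mean under 1, by rat and ordered by role, with values listed at 0 drawn left of the dashed line. Ccl4, Ccl5 and Ccl6 reach at most 1.55 FPKM, and 7 genes have all 3 rats at 0.

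Ligand transcripts exceeded receptor transcripts within rats in the 9 pairs given here. On the log2(FPKM + 1) scale the difference was 3.20 ± 0.44 for Rarres2 minus Cmklr1, 3.07 ± 0.71 for Cxcl12 minus Cxcr4, 3.02 ± 0.97 for Cxcl16 minus Cxcr6 and 2.57 ± 1.3 for Cx3cl1 minus Cx3cr1 (SD, n = 3 rats). Cxcl12 exceeded Ackr3 by 1.15 ± 0.51 and Cxcl10 exceeded Cxcr3 by 2.11 ± 1.25. Lower differences were those of Ccl19 minus Ccr7 (0.95 ± 0.64), Ccl2 minus Ccr2 (0.93 ± 0.62) and Cxcl13 minus Cxcr5 (0.81 ± 0.62). Every pair had 1 sign in all rats, for which the exact two-sided sign-flip test gives p = 0.25, also when adjusted over the 9 pairs. This is the smallest value 3 rats allow, so no pair could pass 0.05. In 4 pairs both genes had a mean of at least 1 FPKM, and in the others the receptor was under 1. The 9 pairs are a selection, so the shared sign cannot be read as a trait of all pairs. Outside them, Xcl1 exceeded Xcr1 in rats 12 and 33, but in rat 24-4 it was listed at 0 beside 0.0411 FPKM for Xcr1.

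**Figure D4:**
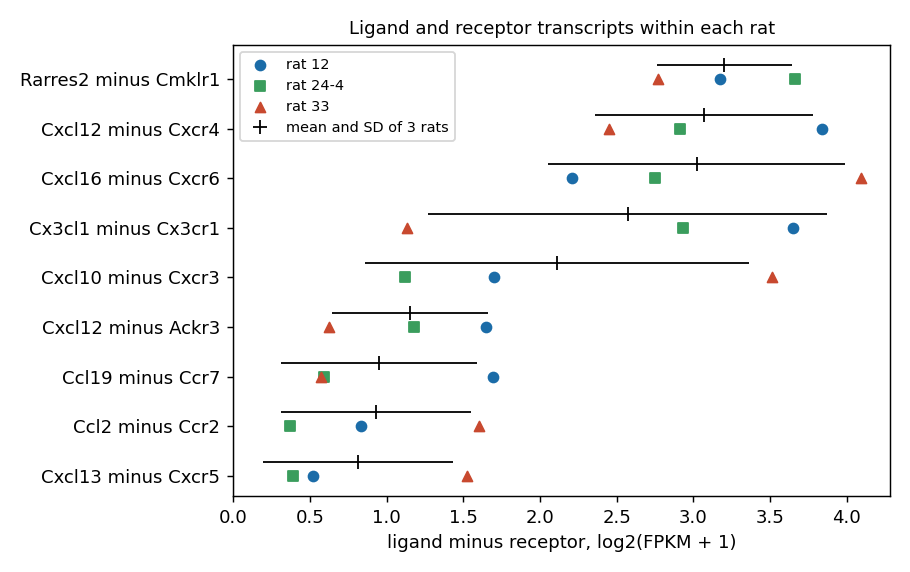
Ligand minus receptor difference in log2(FPKM + 1) for 9 pairs, with 1 point per rat and the mean and SD of 3 rats as a black bar. All points lie right of 0, and Cx3cl1 minus Cx3cr1 runs from 1.13 in rat 33 to 3.65 in rat 12.

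Taking the 19 genes with a mean of at least 1 as a list, rat 33 was more often highest than among all genes. It was highest in 13 of 19, beside 42.0% of the 13754 genes tested. Rat 12 was highest in 4, beside 23.8%, and rat 24-4 in 2, beside 34.2%. The lowest value was that of rat 33 in 6, beside 28.9%, of rat 12 in 8, beside 37.9%, and of rat 24-4 in 5, beside 33.3%. A level more than 2-fold above both other rats was seen for 7 genes in rat 33 (6.61% of all), for 1 in rat 12 (1.29%) and for 0 in rat 24-4 (0.698%). The 7 were Cxcl16, Cxcl10, Cxcl17, Xcl1, Cmklr1, Cxcl13 and Ccl2. A level more than 2-fold below both other rats was seen for 3 genes in rat 33 (Cx3cl1, Ccl27 and Ackr2, beside 2.98% of all). It was seen for 1 in rat 24-4 (Xcl1, listed at 0 there, beside 3.50%) and for 0 in rat 12 (3.08%). A filter on the mean favours such genes, since 6 of the 19 (Cxcl17, Xcl1, Cmklr1, Cxcl13, Ccl2 and Cxcr4) reached a mean of 1 only with rat 33, so these counts are a description. Without the filter, 33 of the 52 genes above 0 were highest in rat 33, beside 44.6% of all 18983 genes above 0, 9 in rat 12, beside 24.3%, and 10 in rat 24-4, beside 31.1%. Of the 33 with a mean above 0 and under 1, rat 33 was highest in 20, beside 51.5%, rat 12 in 5, beside 25.7%, and rat 24-4 in 8, beside 22.8%. With the mitochondrial genome left out of the scaling, 22 of the genes reached a mean of 1. Of these, 16 were highest in rat 33, beside 5922 of all 14127 genes in that setting. The median log2 difference was 0.73 for rat 33 minus rat 12, beside 0.10 over all tested genes, 0.48 for rat 33 minus rat 24-4, beside 0.07, and 0.01 for rat 24-4 minus rat 12, beside 0.07. Over the 52 genes above 0, with no filter, the median difference was lower, at 0.31 for rat 33 minus rat 12, beside 0.08 over all genes above 0, and at 0.16 for rat 33 minus rat 24-4, beside 0.07.

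The limma test set the variance of each gene over the 3 animals against the variance usual at its level. At an adjusted p under 0.05, 0 of the 19 chemokine and receptor genes were called, beside 0.102% of all tested genes. At an unadjusted p under 0.05 there were 5 (Cxcl10, Cxcl17, Ackr2, Xcl1 and Cxcl16), beside 5.96% of all. Of these 5, Cxcl17 and Xcl1 had reached a mean of 1 FPKM only with rat 33, where they were highest. Xcl1 was also listed at 0 in rat 24-4, so nothing is read from the count. Without rat 33, 0 of 14 had an unadjusted limma p under 0.05, beside 656 of all 13460 genes, and 0 had an adjusted one, beside 64. The median SD on the log2(FPKM + 1) scale was 0.64 over the 19 genes and 0.32 over all tested genes.

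**Figure D5:**
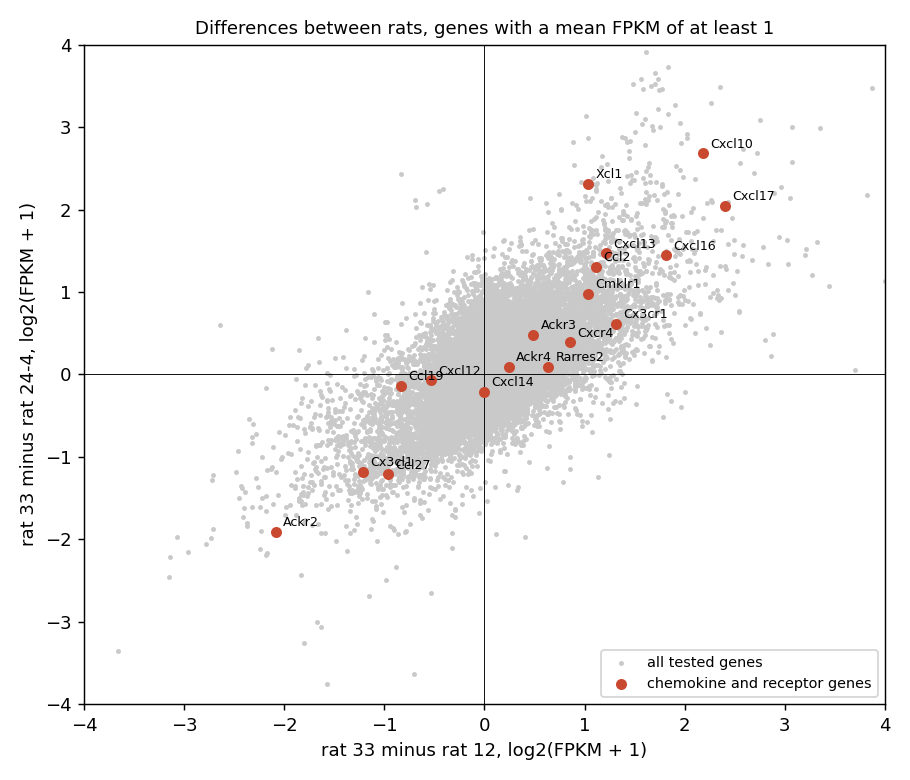
Difference of rat 33 from rat 12 (horizontal) and from rat 24-4 (vertical) in log2(FPKM + 1), with 1 point per gene with a mean of at least 1 FPKM, 18 chemokine and receptor genes in red and all 13754 tested genes in grey. Cxcl10 (2.19 and 2.68) and Cxcl17 (2.41 and 2.05) lie towards the upper right and Ackr2 (-2.08 and -1.91) towards the lower left, and 24 genes fall outside the plotted range.

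Genes that act with chemokines were given by 4 lists. Of 22 receptor signalling genes, all tested, 0 had a limma adjusted p under 0.05 and 2 had an unadjusted one, beside 5.96% of all tested genes. These were Rac2, a leukocyte GTPase of cell movement, with 3.16, 7.57 and 20.3 FPKM in rats 12, 24-4 and 33, and the phospholipase gene Plcb4, with 17.4, 3.14 and 4.10. Gnai2, the inhibitory G protein subunit prominent in leukocytes, had 72.0, 118 and 147 FPKM. Of 9 tested genes that end receptor signalling, 0 had an adjusted and 1 an unadjusted limma p under 0.05, which was Rgs4 with 191, 131 and 36.0 FPKM. Of 5 tested genes that process ligands, 0 passed adjusted and 3 unadjusted. Adam10 and Adam17, which cut Cx3cl1 and Cxcl16 from the membrane, had 23.3, 14.3 and 29.7 FPKM and 7.14, 6.22 and 14.6 FPKM, and neither was among the 3. Of 11 tested inducers of chemokine genes, 0 passed adjusted and 1 passed unadjusted. All 11 were highest in rat 33, beside 42.0% of all tested genes, while the cytokine genes Tnf, Il1b and Il6 had no value over 0.385 FPKM and Ifng was listed at 0.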

How the data were processed

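Deposited values are FPKM, which the authors computed from fragment counts per gene after normalization, per the series' design text and the file headers. Per the submitters' processing notes, HISAT2 (version 2.0.4), StringTie (version 1.3.0) and Rnor_6.0 were used. Which normalization was applied, and whether strand was used, is not given in the sources used here. An abundant transcript lowers the FPKM of all others in its library.

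Tests used log2(FPKM + 1), a scale that understates the differences of low genes. For the 13754 genes whose mean reached 1 FPKM, an intercept was fitted with limma 3.58.1 (R 4.3.3) with a trended, robust prior (7.96 degrees of freedom). The residual variance over the prior was compared with the F distribution, one-sided, with Benjamini-Hochberg adjustment over all genes tested. The test was checked on simulated data. Depth came from loci of at most 400 bp, where 94.4%, 93.2% and 94.0% of low values in rats 12, 24-4 and 33 were whole fragments within 0.02. Whether this depth is raw or already normalized could not be settled. Motifs were searched in RefSeq promoters (GRCr8), matched by symbol. The remaining steps ran in Python 3.11.15 with scipy 1.17.1, pandas 2.3.3 and numpy 2.4.6.

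The genes and the 20 lists (189 entries, 185 matched) were chosen with earlier results of these data known. Every gene with a mean of at least 1 FPKM is given by rat, except 1 that, with a ligand and receptor pair it belongs to, is not reported here, and of lower genes the highest of each role, those that differ most between rats and those at 0 in all rats. Of the other lists, up to 4 genes with the highest mean or lowest p are named. Genes of these lists named for a listed 0, a low value or a different order of rats, such as Mif, Mpo, Tnf, S100a9 and Cd3d, were chosen after their values were seen. Alternatives were the pseudocount, the filter, the prior, 2 scalings and leaving out each rat.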

Additional observations from a re-analysis of the deposited data

How the results depend on the processing

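No chemokine or receptor gene was called by limma at an adjusted p under 0.05 under any of the 6 settings other than leaving out a rat. With a rat left out the number called ran from 0 to 1, the 1 being Cxcl10 without rat 12. The number at an unadjusted p under 0.05 was 5 to 7 under those 6 settings and ran from 0 without rat 33 to 7 without rat 12. The numbers over all genes with these rats left out were 656 of 13460 and 869 of 13825. Over all genes, 23 were called with a pseudocount of 0.1, 8 with median-of-ratios scaling, and 0 with the filter lowered to 0.1, with no filter, with a prior that is not robust and with mitochondrial genes removed from the scaling. These 4 settings gave 903, 864, 733 and 624 genes at an unadjusted limma p under 0.05. With a rat left out, 0 to 104 genes were called. Low filters raised the number of chemokine and receptor genes highest in rat 33, by their construction. At a mean of at least 0.1 it was 30 of 40, beside 7688 of all 17150 genes. Without a filter it was 33 of 52, beside 8467 of all 18983 genes. Leaving out the mitochondrial genome moved the median of all genes for rat 24-4 minus rat 12 to -0.12 and for rat 33 minus rat 24-4 to 0.18. The median difference of chemokine and receptor genes for rat 33 minus rat 12 was then 0.79, and 0.83 with a pseudocount of 0.1, 0.63 with median-of-ratios scaling, 0.47 with the filter at 0.1 and 0.31 with no filter. For rat 33 minus rat 24-4 it was 0.60, 0.61, 0.45, 0.43 and 0.16 under the same settings. The 9 pair differences kept their sign, and 7 moved by more than their SD with a pseudocount of 0.1. Other causes were not tested. No paired analysis was possible because there is 1 group. Depth limits the genes under the floor of a 1 kb gene, which were 30, 27 and 23 of 59 in rats 12, 24-4 and 33.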

Other observations

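Chemokine and receptor genes lie in clusters, and the counts of genes highest in rat 33 are given here for some of them. On Rnor_6.0, 37 of the 59 genes lay within 500 kb of another, in 10 clusters. The largest held 8 receptor genes on chromosome 8 over 388 kb, of which 1 had a mean of at least 1 FPKM. In the Cxcl9, Cxcl10 and Cxcl11 cluster on chromosome 14 all 3 genes were highest in rat 33. In the cluster of Ccl17, Cx3cl1 and Ccl22 on chromosome 19, and in that of Ccl27, Ccl19 and Ccl21 on chromosome 5, 0 of 3 genes were highest in rat 33. The share over all genes above 0 was 44.6%. Ccl22 and Ccl21 were above 0 in 1 rat each, at 0.0373 FPKM in rat 12 and 0.277 in rat 24-4. With so few genes per cluster, no difference between clusters is read from these counts. No test was made on clusters.

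Of the chemokine-like genes outside the naming rule, 6 were matched. Pf4, a platelet and border macrophage chemokine, had 0.819, 2.0 and 4.35 FPKM in rats 12, 24-4 and 33. Cklf had 0.978, 2.0 and 2.31 FPKM, and the complement receptor C5ar2 had 0.869, 0.682 and 2.47. Ppbp, Mif and Gpr1 were listed at 0 in all rats, from which absence or a low level cannot be read.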
